A study of Homo sapiens with 48 samples.

Results

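In all, 1841 sites of the NF-κB subunit RELA were called after 30 min of TNFα, were called again after 6 h, and had no RELB peak in vehicle or after 6 h of TWEAK. They were chosen from 11249 RELA regions of 30 min of TNFα on chromosomes 1 to 22 and X. A member overlapped, by at least 1 bp, a RELA peak of 6 h of TNFα, and no peak of RELA in vehicle, of RELB in vehicle or of RELB at 6 h of TWEAK. The presence of RELA at both TNFα times and the absence of the other 3 peaks are therefore not findings. The cells were L3.6pl, an established human line of pancreatic ductal adenocarcinoma. RELA, RELB and the active-chromatin mark H3K27ac were each profiled by ChIP-seq in vehicle (PBS) and after 30 min or 6 h of TNFα or TWEAK, and the AP-1 subunit FOSL1 was profiled in vehicle alone. The labels give 3 replicates for each of these 16 conditions, and the deposited data hold 1 pooled list of peaks per condition.

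RELA carries the canonical NF-κB response. In resting cells IκB proteins hold it in the cytoplasm, and TNFα, through the IκB kinase complex, removes them within minutes. RELB carries the noncanonical response, in which TWEAK and related ligands stabilise the kinase NIK and the precursor p100 is slowly processed. Both subunits bind κB sequences, and newly made IκB proteins and other feedback genes shut the canonical response down again. H3K27ac marks active promoters and enhancers, and FOSL1 belongs to the AP-1 family, which is often found at open enhancers of pancreatic cancer cells.

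The members were set beside 5665 transient regions, which were in the RELA list of 30 min of TNFα but in none of the other 4 lists of the rule. They were also set beside 850 sustained regions, which under the rule differed from the members only by a RELB peak at 6 h of TWEAK. These classes also differed in strength. The median RELA fold at 30 min was 5.39 at transient regions, 8.35 at members and 9.72 at sustained regions with RELB. Their median lengths were 174, 245 and 275 bp. The remaining 2893 regions, of which 80.7% lay in tandem repeats, had a peak in a vehicle list or another combination of lists. Of the members, 128 (6.95%) lay in tandem repeats, defined as a self-match of at least 0.4 in the 1000 bp around the summit. The 5 RELA lists held between 2777 and 11249 peaks and the 5 RELB lists between 2383 and 4085 on the same chromosomes. Depth per sample is unknown, it is not settled that all 3 replicates entered the RELA list of 30 min of TNFα, and the lists carry no replicate error. All tests below are two-sided and treat regions as units, so that they describe these lists and not the spread between cultures.

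The rule was met with room to spare at most members. The median overlap with the RELA peak of 6 h was 153 bp, and 13 members overlapped it by under 50 bp. The smallest overlaps were 6 bp at a region nearest RNF187 and 6 bp at a region nearest YIPF3. Just outside the rule, 114 transient regions had a RELA peak of 6 h within 500 bp that did not touch them, and 52 members had an excluded peak within 1 kb. The lowest RELA fold enrichment at 6 h among the members was 2.62, at a region nearest CA2, and the strongest transient region, nearest TLN2, reached 18.7 at 30 min with no peak at 6 h. The summits of both times lay a median of 21 bp apart, and 1574 members (85.5%) had them within 50 bp.

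8 members show what these sites look like in sequence, in the reference hg38, plus strand. They were picked after the values were seen, from the named genes, to show the combinations of κB and AP-1 matches found. Capitals mark matches to the κB consensus, in its 10-base form or in the 9-base form without the first G, and to the AP-1 consensus TGANTCA. CXCL8 and CXCL1 are chemokine promoters, TNIP1 (an inhibitor of NF-κB signaling that works with A20) is a promoter-proximal site, EFNA1 and CSF1 are distal sites with repeated κB matches, RIPOR3 is an intronic site with κB and AP-1, HMGA2 is a distal site with AP-1 alone, and FGF9 is the strongest member, with no match to either. They lie at chr4:73740356-73740516 (CXCL8), chr4:73869244-73869364 (CXCL1), chr5:151094178-151094298 (TNIP1), chr1:155124726-155124846 (EFNA1), chr1:109892658-109892778 (CSF1), chr20:50638351-50638471 (RIPOR3), chr12:65656971-65657091 (HMGA2) and chr13:22040837-22040957 (FGF9). By the protein-coding genes of GENCODE 44 the summit of RIPOR3 lies in an intron of that gene. The other 7 summits are intergenic, which here means outside every protein-coding gene.
CXCL8: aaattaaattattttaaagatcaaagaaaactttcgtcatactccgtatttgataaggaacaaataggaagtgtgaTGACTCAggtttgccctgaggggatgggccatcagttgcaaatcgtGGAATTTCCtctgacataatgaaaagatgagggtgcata
CXCL1: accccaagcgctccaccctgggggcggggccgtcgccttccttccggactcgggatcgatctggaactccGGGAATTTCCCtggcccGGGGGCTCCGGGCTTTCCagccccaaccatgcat
TNIP1: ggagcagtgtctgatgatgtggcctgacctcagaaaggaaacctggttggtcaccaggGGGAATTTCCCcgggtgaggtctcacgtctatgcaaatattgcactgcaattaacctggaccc
EFNA1: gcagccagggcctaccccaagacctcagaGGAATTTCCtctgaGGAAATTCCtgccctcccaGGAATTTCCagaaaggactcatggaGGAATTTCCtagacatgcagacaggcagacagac
CSF1: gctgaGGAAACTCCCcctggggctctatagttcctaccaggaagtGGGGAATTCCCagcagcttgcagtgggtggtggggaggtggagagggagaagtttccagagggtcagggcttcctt
RIPOR3: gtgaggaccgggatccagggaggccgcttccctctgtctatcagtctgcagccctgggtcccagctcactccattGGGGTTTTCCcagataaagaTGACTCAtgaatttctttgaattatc
HMGA2: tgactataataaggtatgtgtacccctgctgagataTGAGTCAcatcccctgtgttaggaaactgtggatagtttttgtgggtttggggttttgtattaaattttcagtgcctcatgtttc
FGF9: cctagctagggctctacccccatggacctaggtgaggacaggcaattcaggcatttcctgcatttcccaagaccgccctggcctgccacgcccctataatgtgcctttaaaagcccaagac

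In the CXCL8 window the AP-1 match was centred 31 bp before the summit and the 9-base κB match 16 bp after it, on the plus strand. At EFNA1 there were 4 separate 9-base matches within 31 bp of the summit and none of the 10-base form. At TNIP1 the κB match was centred within 3.5 bp of the summit.

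RELA fold enrichment was lower at 6 h than at 30 min at most members. The median fold enrichment over input was 8.35 (quartiles 6.14 and 11.1) at 30 min and 5.93 (5.03 and 7.48) at 6 h. These values chose the members and are given as a description. The ratio of 6 h to 30 min had a median of 0.754 (quartiles 0.598 and 0.944), and it was above 1 at 359 members (19.5%). Where RELA was also called in vehicle, at 351 regions outside tandem repeats, the ratio of these lists was 0.932 (0.823 and 1.06). At the 850 sustained regions with RELB it was 0.824. The ratio fell with the level at 30 min, which is its own denominator: its median was 1.00 in the weakest of 4 equal groups of members (fold 2.43 to 6.14) and 0.567 in the strongest (11.1 to 31.3).

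**Figure D1:**
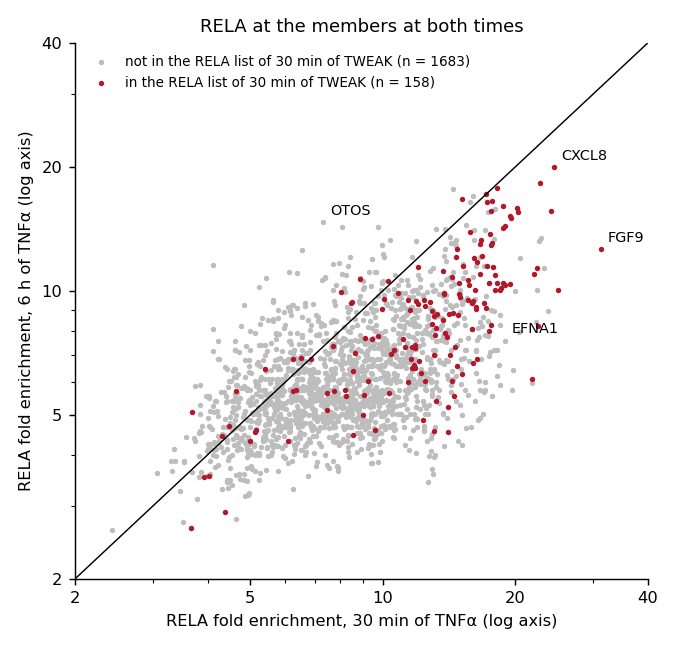
Each point is 1 of the 1841 members, with RELA fold enrichment over input at 30 min of TNFα on the x axis and at 6 h on the y axis (both log axes); the line marks equal values. Red points are the 158 members also in the RELA list of 30 min of TWEAK, and most points lie below the line (1482 members).

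The 10 strongest members at 30 min had folds of 22.5 to 31.3. The first was an intergenic region 370 kb from the start of FGF9, with a RELA fold of 31.3 at 30 min and 12.6 at 6 h. The next, in an intron of MACROD2 and nearest the start of FLRT3, had 25.01 and 10.06. The region 53 bp upstream of the start of CXCL8, the neutrophil chemokine IL-8, had 24.5 and 20.0, and so kept more of its signal than either. The others were nearest NDUFV2 (24.1), MOBP (23.6), CYP2F1 (23.3), SLC9A8 (22.8), TCIM (22.7), SPINK6 (22.7) and VXN (22.5). All 10 carried FOSL1 in vehicle, with folds of 4.15 to 9.77. 8 of the 10 carried H3K27ac in vehicle, and MOBP and CYP2F1 did not. FOSL1 did not rise steadily with strength over the members. From the weakest to the strongest of the 4 equal groups it was at 62.9%, 48.5%, 52.0% and 55.9%. The share was 54.8% over all members and 58.0% over all RELA regions. H3K27ac in vehicle was at 69.6% of the strongest group, 64.9% of all members and 60.1% of all RELA regions.

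The CXCL8 promoter region (chr4:73740312-73740647) can be followed through every list. RELA was absent from the vehicle list, 24.5 and 20.0 after 30 min and 6 h of TNFα, and 12.1 and 5.33 after 30 min and 6 h of TWEAK. No RELB list held a peak there. FOSL1 was present in vehicle at a fold of 8.63. H3K27ac was at 2.44 in vehicle, was 3.36 at the first TNFα time and was 2.29 at the second, and had 3.19 and 2.63 at 30 min and 6 h of TWEAK. It was 1 of 4 members chained at this locus. The member 14.4 kb upstream (chr4:73726034-73726267) had RELA folds of 7.74 and 9.42 at 30 min and 6 h of TNFα and no RELA peak with TWEAK. The member 5.73 kb upstream had 7.47 and 4.93, no FOSL1, and an H3K27ac peak only in the 6 h TNFα list of the 5. The member 57.2 kb upstream had 3.74 and 5.88.

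At EFNA1, which codes for the ephrin ligand A1, the member 3.09 kb upstream of the start (chr1:155124563-155124971) had RELA folds of 18.9 and 7.57 at 30 min and 6 h of TNFα. It was in no RELA or RELB list of TWEAK and had no FOSL1 peak. The H3K27ac list of vehicle held no peak, those of TNFα had folds of 2.75 and then 2.31, and those of TWEAK held none. CXCL8 and EFNA1 thus differed in all of FOSL1, resting H3K27ac and RELA with TWEAK.

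Among members with a fold of at least 5 at both times, several stood at the top of the ratio of 6 h to 30 min. Among them were regions nearest OTOS (7.31 to 14.7, a ratio of 2.01), HMGA2 (5.23 to 10.2, 1.96), KRTAP24-1 (6.54 to 12.6, 1.92) and RIPOR3 (6.12 to 11.1, 1.82). None of these 4 was in a RELA list of TWEAK. OTOS and HMGA2 carried FOSL1 at folds of 10.1 and 13.6, and KRTAP24-1 and RIPOR3 did not. At KRTAP24-1 and RIPOR3 the H3K27ac peak was in the 6 h TNFα list alone, with folds of 3.26 and 2.30. Over all 359 members with a ratio above 1, 33.1% had an AP-1 match, against 19.8% of the 1482 others. FOSL1 was at 49.3% of the former and 56.1% of the latter. Their median RELA folds at 30 min were 5.53 and 9.09. The AP-1 share also varied with that fold, at 24.9%, 27.2%, 23.5% and 14.1% from the weakest to the strongest of the 4 equal groups. Strength was not held fixed here, and the difference was not tested.

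Across the lists that the rule did not use, the members lay between the transient regions and the sustained regions with RELB in nearly every list. The exception was RELB at 30 min of TWEAK, with 1.09% of members, 0.353% of transient regions and 0.706% of sustained regions with RELB. The order in the other lists is also that of the RELA fold at 30 min and of region length.

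**Figure D2:**
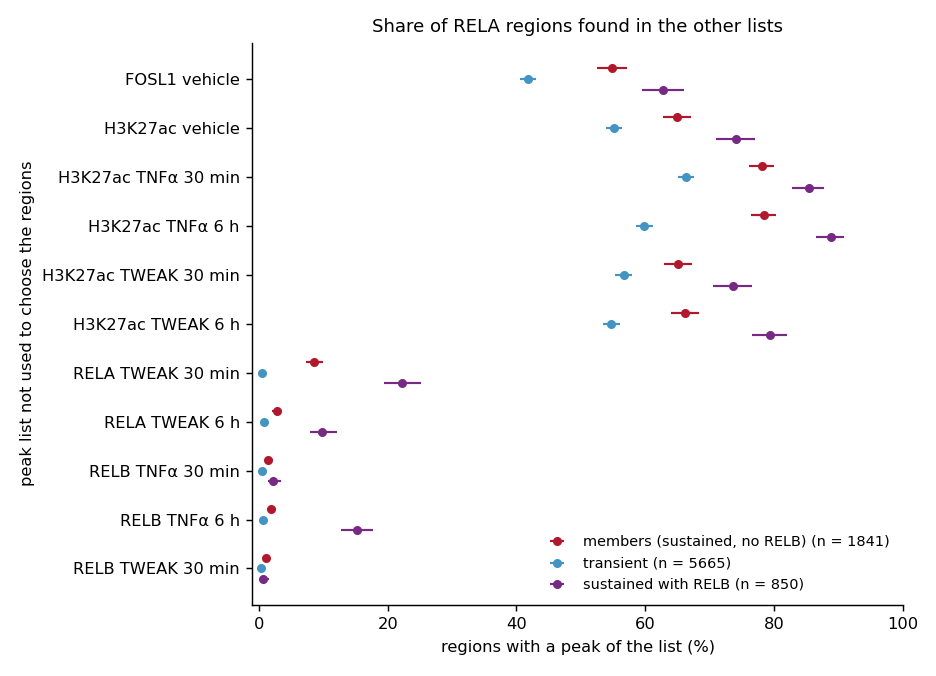
Percent of regions (x axis) with a peak of each list not used by the rule (y axis), for members (n = 1841), transient regions (n = 5665) and sustained regions with RELB (n = 850), with exact 95% intervals that cover counting of regions only. H3K27ac was counted within 500 bp of the summit. The members sit between the other classes in all lists but RELB at 30 min of TWEAK.

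The RELA lists of TWEAK held a minority of these sites. The RELA list of 30 min of TWEAK held 158 members (8.58%), beside 20.1% of all 11249 RELA regions and 7.79% of those outside tandem repeats. It held 28 transient regions (0.494%) and 189 sustained regions with RELB (22.2%). The odds were 18.9 times higher at members than at transient regions (exact 95% interval 12.5 to 29.45, Fisher's exact test with Benjamini-Hochberg adjustment over 16 comparisons, p = 2.91e-68) and 0.329 times those at the regions with RELB (0.259 to 0.416, adjusted p = 9.03e-21). The first value moved to 8.22 (4.84 to 14.0) when regions were compared within deciles of the RELA fold and to 47.1 outside tandem repeats. The RELA list of 6 h of TWEAK held 51 members (2.77%, against 20.9% of all regions), 0.865% of transient regions and 9.88% of sustained regions with RELB, and 16 members were in both lists. The rule sets the distance from the 20.1% and the 20.9%, since it removed every region with RELA in vehicle. Of the 2260 and 2354 regions behind these shares, 1885 and 2170 were among the 2893 regions outside the 3 classes.

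The members reached by TWEAK at 30 min were the stronger ones. Their median fold at 30 min of TNFα was 13.8, against 8.06 at the other 1683, and 24.6% of the strongest of those 4 groups were among them against 2.82% of the weakest. FOSL1 was at 72.8% of them and 53.1% of the others, and 29.7% and 16.8% lay within 1 kb of a start site. An AP-1 match was found at 8.86% and 23.7%. The 5 with the highest fold at 30 min of TNFα were nearest FGF9, FLRT3, CXCL8, NDUFV2 and TCIM, with TWEAK folds of 8.54, 8.54, 12.1, 7.25 and 8.74. The 51 members in the 6 h list of TWEAK had a lower median fold of 5.56 at 30 min of TNFα and a κB match at 11.8%.

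RELB at other times was rare. Its lists of 30 min of TNFα, 6 h of TNFα and 30 min of TWEAK held 27, 36 and 20 members (1.47%, 1.96% and 1.09%), beside 17.5%, 20.7% and 15.7% of all regions. Together they held 62 members. The rule had removed every region with RELB in vehicle or at 6 h of TWEAK, so these counts cover what was left. The 62 members had a median RELA fold of 4.77 at 30 min, a κB match at 6.45% and a GC content of 39.8%, against 51.5% GC over all members. CCDC124 was an exception, with a RELB fold of 4.44 at 6 h of TNFα and RELA folds of 20.4 and 12.0.

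FOSL1 was present in vehicle at 1009 members (54.8%). Over all RELA regions the share was 58.0%, and outside tandem repeats it was 48.9%, so the members lie close to the background. It was 41.8% at transient regions (odds ratio 1.69, 95% interval 1.52 to 1.88, Fisher's exact test, adjusted p = 1.16e-21) and 62.8% at sustained regions with RELB (odds ratio 0.718, 0.605 to 0.851, adjusted p = 1.28e-04). The FOSL1 summit lay a median of 61 bp from the RELA summit and within 100 bp at 676 members. The median FOSL1 fold was 5.78 at members, 5.37 at transient regions and 4.98 at FOSL1 regions that no RELA or RELB list touched.

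The members with and without FOSL1 differed in their chromatin and sequence, though hardly in the RELA fold at 30 min of TNFα. Its median was 8.27 with FOSL1 and 8.40 without. At 6 h of TNFα it was 5.74 and 6.20, and the RELA list of 30 min of TWEAK held 11.4% and 5.17%. H3K27ac in vehicle was at 84.9% of members with FOSL1 and 40.6% of those without. A 10-base κB match was at 42.3% and 73.4%, and an AP-1 match at 28.1% and 15.5%. These are descriptions within the members, without a test.

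The κB consensus was the leading sequence at these sites. Its 10-base form was found in the 200 bp around the summit of 1038 members (56.4%), against 37.5% of all RELA regions and 49.5% of those outside tandem repeats. The 9-base form was in 1329 members (72.2%, all regions 52.1%). In windows of the same length 1000 bp away, 4.70% held the 10-base form, and so did 4.17% of the FOSL1 regions without RELA or RELB. Transient regions had it at 38.8% (odds ratio 2.04, 1.83 to 2.27, Fisher's exact test, adjusted p = 1.01e-38) and sustained regions with RELB at 74.0% (odds ratio 0.454, 0.378 to 0.545, adjusted p = 1.59e-18). Matches on both strands and matches shifted by a base were merged before sites were counted. Of the members, 908 held 1 site, 115 held 2 and 15 held 3 or more.

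The κB matches were centred on the summit. Of 2136 matches within 500 bp of the members' summits, 917 (42.9%) were within 20 bp and 1392 (65.2%) within 50 bp. The density of matches within 20 bp of the summit was 32.5 times that at 250 to 500 bp from it. At transient regions the same ratio was 18.6, and at sustained regions with RELB 39.7.

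**Figure D3:**
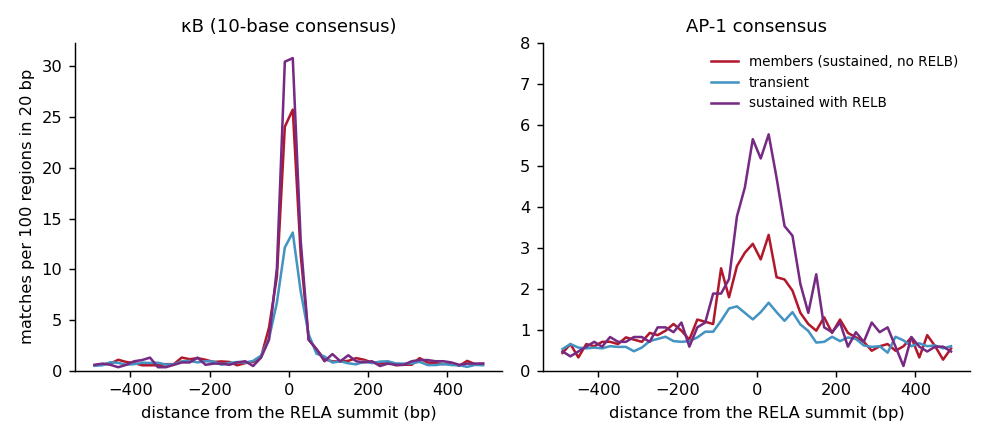
Matches per 100 regions in bins of 20 bp (y axis) by distance from the RELA summit (x axis, bp), for the 10-base κB consensus on the left and AP-1 on the right. Lines are members, transient regions and sustained regions with RELB, and overlapping matches are not merged. κB is a narrow peak at the summit in all classes, AP-1 is a lower and wider one, and near the summit the members lie between the other classes in both.

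Of the 100 possible words of the consensus, with both strands merged, 87 occurred at the members, and 1 or more of the 6 most frequent were in 471 members, or 45.4% of those with a match. The most frequent, GGGAAATTCC, was in 146 members (7.93%), against 5.61% of transient regions and 5.53% of sustained regions with RELB. GGGAATTTCC was in 132 members (7.17%) and GGGGATTTCC in 88 (4.78%). At sustained regions with RELB the order was another one. There GGGACTTTCC led with 11.3%, and it was in 67 members (3.64%) and 1.96% of transient regions. GGGGAATTCC was in 8.12% of the regions with RELB and 4.51% of the members. These shares by word were not tested.

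AP-1 was the next sequence. TGANTCA was found in 413 members (22.4%), against 14.4% of all RELA regions, 5.84% of the members' flanking windows and 48.4% of FOSL1 regions without RELA or RELB. Transient regions had it at 12.6% (odds ratio 2.00, 1.75 to 2.29, Fisher's exact test, adjusted p = 2.97e-22) and sustained regions with RELB at 33.1% (odds ratio 0.586, 0.487 to 0.704, adjusted p = 1.41e-08). AP-1 lay farther from the summit than κB, with 10.5% of 1054 matches within 20 bp. Both sequences were in 179 members (9.72%), where the product of their shares is 12.6%, and their centres were a median of 39.5 bp apart.

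Most other sequences searched lay closer to their flanks than κB and AP-1 did. An exception was the rare ETS form CCGGAAGT, in 21 members (1.14%) and 0.190% of flanks. GGGCGG, the core bound by KLF and SP factors, was in 20.4% of members and 9.53% of flanks. TTGCNNAA, a C/EBP form, was in 12.9% and 9.15%. GGAATG, bound by TEAD factors, was in 13.5% and 12.0%, and an interferon-response form bound by IRF factors in 4.02% and 3.99%. At 360 members (19.6%) neither the 9-base κB form nor AP-1 was found. Their median RELA fold at 30 min was 6.41 and FOSL1 was at 71.9% of them.

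H3K27ac was already present at most members. Within 500 bp of the summit, 1195 members (64.9%) had a peak in vehicle, beside 60.1% of all RELA regions. After TNFα the count was 1438 (78.1%, all regions 71.2%) at 30 min and 1443 (78.4%, all regions 67.1%) at 6 h. After TWEAK it was 1198 (65.1%, all regions 63.3%) at 30 min and 1219 (66.2%, all regions 60.6%) at 6 h. Transient regions had H3K27ac in vehicle at 55.1% (odds ratio 1.505, 1.35 to 1.68, Fisher's exact test, adjusted p = 2.89e-13) and sustained regions with RELB at 74.1% (odds ratio 0.646, 0.536 to 0.777, adjusted p = 2.87e-06).

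Among the 646 members with no vehicle peak, 264 (40.9%) gained one at 30 min of TNFα, beside 32.9% of all such regions. At transient regions 692 of 2541 (27.2%) did (odds ratio 1.85, 1.54 to 2.22, Fisher's exact test, adjusted p = 6.68e-11). This difference did not hold between regions of like RELA strength (deciles of the fold), with an odds ratio of 1.07 (0.865 to 1.31) and an adjusted p of 0.551 by the Mantel-Haenszel test, which is not exact. At sustained regions with RELB 108 of 220 (49.1%) did (odds ratio 0.717, 0.521 to 0.987, Fisher's exact test, adjusted p = 0.0402), a call lost under 6 of the alternatives.

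The members also differed in keeping that gain. Of the 264 gained peaks 185 (70.1%) were still called at 6 h, beside 50.0% over all RELA regions. At transient regions 250 of 692 (36.1%) were (odds ratio 4.13, 3.02 to 5.70, Fisher's exact test, adjusted p = 9.44e-21), and between regions of like RELA strength it was 4.03 (2.84 to 5.72). It was 2.21 (1.59 to 3.06) when the H3K27ac peak had to overlap the region itself. At sustained regions with RELB 88 of 108 (81.5%) were kept (odds ratio 0.533, 0.290 to 0.947, Fisher's exact test, adjusted p = 0.0296).

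**Figure D4:**
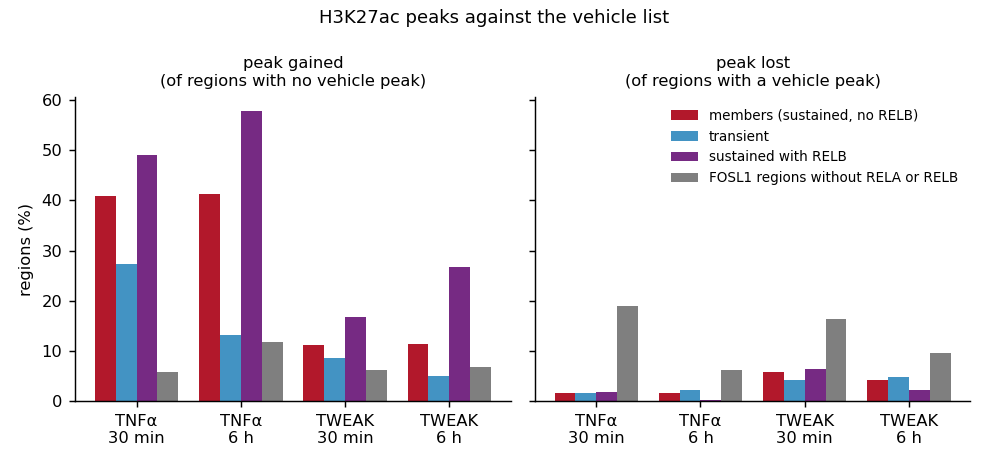
Percent of regions (y axis) with an H3K27ac peak gained (left, of regions with no vehicle peak) or lost (right, of regions with one) in each of 4 conditions (x axis), for members, transient regions, sustained regions with RELB and FOSL1 regions without RELA or RELB; bars have no error, since each list is pooled. Gains at members were 40.9% and 41.3% after TNFα and 11.3% and 11.5% after TWEAK.

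After TWEAK the members' H3K27ac gains and losses were closer in number, with 73 gained and 70 lost at 30 min, and 74 gained and 50 lost at 6 h. The gains after TWEAK were 11.3% and 11.5% of members without a vehicle peak, beside 16.6% and 11.4% of all such regions. The losses were 5.86% and 4.18% of members with one, beside 5.75% and 6.8% of all such regions. After TNFα it was 264 gained and 21 lost at 30 min, and 267 gained and 19 lost at 6 h. The 6 h gain was 41.3%, beside 23.8% of all regions, and the losses at both times were 1.76% and 1.59%, beside 3.37% and 4.14%. At FOSL1 regions without RELA or RELB, 5.92% gained and 19.0% lost a peak at 30 min of TNFα, and 11.9% gained and 6.20% lost one at 6 h. After TWEAK 6.20% of these FOSL1 regions gained and 16.4% lost one at 30 min, and 6.81% and 9.69% at 6 h. List sizes differed as well. The H3K27ac lists held 59855 peaks in vehicle, 53861 and 61154 at 30 min and 6 h of TNFα, and 55784 and 57982 with TWEAK. Over members with a peak in both lists, the median ratio of H3K27ac fold to vehicle was 1.06 at 30 min and 1.00 at 6 h of TNFα. With TWEAK it was 1.01 at 30 min and 1.05 at 6 h. Over all RELA regions the ratios were 1.04 and 1.00 with TNFα and 1.02 and 1.05 with TWEAK. At FOSL1 regions without RELA or RELB they were 0.977 and 0.986 with TNFα and 0.984 and 1.04 with TWEAK. The small rise at 6 h of TWEAK was thus also found at these FOSL1 regions. That at 30 min of TNFα was found at the members and over all RELA regions, and not at these FOSL1 regions. By pattern over the vehicle list and both TNFα lists, 1163 members (63.2%) had H3K27ac in all 3 lists and 300 (16.3%) in none, beside 56.5% and 23.9% of all RELA regions. The latter share was 31.1% at transient regions, and at members it was 25.8% when the peak had to overlap the region itself.

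The 5 strongest members with a gain that was kept were nearest CYP2F1, CCDC124, UBE2E1, GUCY2F and EFNA1, with RELA folds of 23.3, 20.4, 20.0, 19.0 and 18.9 at 30 min. The region at CYP2F1 lies in an exon of that gene (chr19:41127925-41128248), and its H3K27ac fold was 4.75 at 30 min and 3.34 at 6 h of TNFα. UBE2E1 had H3K27ac after 6 h of TWEAK as well, at 2.46. Of all 185 such members, 24.3% carried FOSL1 and 65.9% a κB match, against 54.8% and 56.4% of all members. The 79 members whose gain was not kept were at 26.6% and 75.9%. The 290 members in no H3K27ac list at all were at 22.4% and 66.9%. All of these groups lack H3K27ac in vehicle by definition, so the shares do not set the kept gains apart.

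Most members were distal. By summit and protein-coding genes alone, 49.2% were intergenic, 41.6% lay in introns and 9.18% in exons. The median distance to a protein-coding start was 25.1 kb. Within 1 kb of a start site were 330 members (17.9%), beside 12.5% of all RELA regions. This compared with 15.55% of transient regions (odds ratio 1.19, 1.03 to 1.36, Fisher's exact test, adjusted p = 0.0203) and 13.3% of sustained regions with RELB (odds ratio 1.42, 1.13 to 1.81, adjusted p = 0.0031). Within 500 bp of a start site neither call held. The call against transient regions was also lost with 50% reciprocal overlap (odds ratio 1.03) and within fold deciles (1.18). The 330 promoter members had H3K27ac in vehicle at 94.8%, a κB match at 68.2% and AP-1 at 7.27%.

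**Figure D5:**
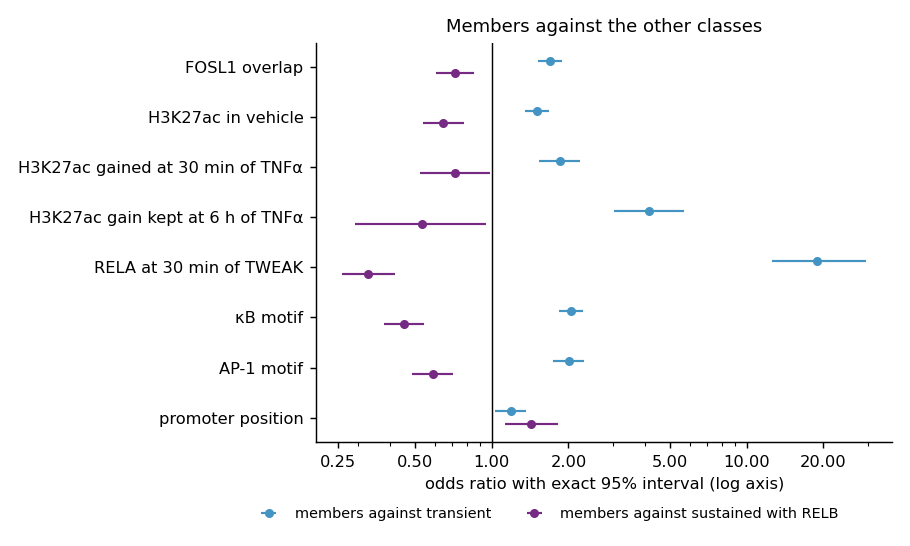
Odds ratios (x axis, log scale) for 8 measures (y axis) at members against transient regions (blue) and against sustained regions with RELB (purple), with exact 95% intervals over regions. Ratios against transient regions are all above 1 and those against regions with RELB are below 1, apart from promoter position at 1.42.

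Members were mostly single. Chained over gaps under 50 kb they formed 1635 loci, of which 167 held 2 or more, with 373 members. The largest held 6 members from KDM6B, a histone demethylase, to RNF227 (chr17:7809507-7915093), with RELA folds of 5.79 to 13.4 at 30 min. H3K27ac was at 5 of these 6 in vehicle and at all 6 at both TNFα times. 5 members lay by TNFAIP2, an early TNFα target (chr14:103075800-103123584), with folds of 6.45 to 14.4 and none in the RELA list of 30 min of TWEAK. At TNIP1 4 members fell within 8.39 kb, none of them with FOSL1.

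Genes near members were counted over lists of the pathway. Of 19970 protein-coding genes, 2395 (12.0%) had a member within 50 kb of the start site. Neighbouring genes share members, so genes of a list are not independent. Among chemokines, which draw leukocytes, 15 of 16 (93.8%) had one, from 14 different members. CXCL1, another neutrophil chemokine, had a member 89 bp upstream with RELA folds of 17.3 and 15.5 at both TNFα times, no TWEAK peak and no FOSL1. That same member was the strongest within 50 kb of CXCL6. The strongest near CXCL2, 17.9 kb from its start in an intron of MTHFD2L, had 18.4 and 5.91.

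Of the IκB family, 3 of 6 genes had a member. NFKBIZ, which codes for the nuclear IκB family protein IκBζ, had one 205 bp upstream with folds of 18.9 and 10.3, NFKBID had 11.3 and 5.74, and BCL3 had 4.24 and 4.32. The list of ubiquitin editing and feedback genes also holds TNFAIP2, which is counted there as an early TNFα target. Of its 10 genes 2 had members, TNFAIP2 with 5 and TNIP1 with 4. The strongest at TNIP1 had 8.94 and 7.63. Of 5 NF-κB subunit genes only RELA had one, 10.2 kb from its start, with 13.1 and 8.66.

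Of 20 TNF pathway adaptors and kinases 6 had a member. MAP3K8, a kinase that links TNFα to ERK, had one 27 bp upstream that kept its level, with 17.2 and 16.4. Among TNF receptors it was 3 of 14 and among TNF ligands 1 of 10. The strongest member near TNFRSF1A, the main TNFα receptor, lay 18.6 kb from its start in an intron of PLEKHG6, with 10.5 and 5.24.

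Among cytokines and growth factors 5 of 24 had a member. CSF1, the macrophage growth factor, had one 17.5 kb upstream with 18.7 and 14.2 after TNFα and 11.1 and 4.88 after TWEAK. In apoptosis and survival it was 5 of 18, with BID, a pro-apoptotic BCL2 protein, at 18.0 and 15.8 and 7.15 kb from its start. In the interferon and antigen presentation list it was 6 of 23, with B2M, the light chain of MHC class I, at 15.2 and 11.5, 63 bp from its start. 

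Lists of genes for invasion, signalling and stress held between 3 and 6 such genes each. Matrix proteases and the urokinase system had 5 of 19, with PLAU, urokinase, at 15.2 and 10.7 and 78 bp from its start. Extracellular matrix and integrins had 5 of 19, where ITGB6, an epithelial integrin chain, had 8.44 and 6.65 and no FOSL1. Ephrins and Eph receptors had 4 of 12, with EPHA2 at 13.0 and 6.47 and 8.55 kb from its start. Early response genes and MAPK phosphatases had 6 of 15, with DUSP6, an ERK phosphatase, at 12.0 and 6.01, 21.9 kb from its start, and IER3 at 10.0 and 5.03. Stress enzymes had 4 of 10, with PTGS2, which makes prostaglandins, at 9.05 and 4.67, 35.1 kb from its start. AP-1 genes had 3 of 13. The stronger of 2 members near JUNB lay 41.8 kb from its start, nearest BEST2, with 10.2 and 6.33.

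Further lists lay near the 12.0% of all genes. Adhesion and immune surface genes had 2 of 15, YAP and TEAD targets 2 of 14, pancreatic lineage factors 2 of 17 and EMT factors and cadherins 1 of 11. Of the TNFα-specific genes that the study took from its own RNA-seq, 94 of the 263 matched (35.7%) had a member within 50 kb, and of its list of genes common to TNFα and TWEAK, which also holds TWEAK-specific ones, 79 of 492 (16.1%). Both lists come from the study itself and are no independent evidence. Of the former, CYBA, a subunit of the NADPH oxidase, had the strongest member, with 22.4 and 11.4.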

How the data were processed

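ChIP-seq was analysed from 16 pooled peak lists of 48 samples (11 narrow and, for H3K27ac, 5 broad). Per the submitters' processing notes the authors used Bowtie2 2.5.0, SAMtools 1.18, deepTools 3.3.2 and MACS2 on hg38. The deposited fold enrichment is a ratio over input, and the deposited −log10 q was used for a stricter limit of 3; the −log10 p columns were not used. Depth per sample is unknown, and lists hold no replicates. Overlap was 1 bp; H3K27ac was counted within 500 bp and motifs within 200 bp around the summit, with GENCODE 44. Shares were compared by Fisher's exact test (two-sided, Benjamini-Hochberg over 16 comparisons, threshold 0.05) in Python 3.11.15 with scipy 1.17.1; functions were tested on simulated data. Alternatives changed overlap, distances, windows, repeats, loci and fold deciles. Named were the CXCL8 and EFNA1 regions, the 10 strongest members, 5 with the highest ratio (folds of at least 5), 5 with H3K27ac gained and kept, 5 strongest with TWEAK, the largest loci, and up to 4 genes per list. Members and lists were chosen with earlier results of these data known. Some items that this rule names are not reported here.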

Additional observations from a re-analysis of the deposited data

How the results depend on the processing

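No paired analysis was possible because each condition is 1 pooled list, and for the same reason no replicate could be left out. Of 140 alternatives of the 16 comparisons (122 planned, 18 chosen after seeing the data), 129 kept their direction and side of the threshold, 11 lost significance and 0 reversed; the cause was not tested. For H3K27ac gained at 30 min of TNFα against transient regions, the odds ratio was 1.07 within fold deciles. Against sustained regions with RELB it was 0.738 with 50% reciprocal overlap, 0.729 with no excluded peak within 1 kb, 0.791 outside tandem repeats, 0.773 within fold deciles, 0.738 with H3K27ac within 1000 bp and 0.780 over distal regions alone. For promoter position against transient regions it was 1.03 with reciprocal overlap, 1.18 within fold deciles and 1.03 within 500 bp, and against regions with RELB 1.11 within 500 bp. The share of genes with a member was 4.13% at 10 kb and 20.4% at 100 kb. The number of members was 1407 to 1789 under the stricter rules. The share of members with H3K27ac in none of the vehicle and TNFα lists was 25.8% when the peak had to overlap the region and 23.1% with −log10 q of at least 3.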
